A study of Patiria miniata with 16 samples.

Results

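BAPN (beta-aminopropionitrile) was given to bat sea star (Patiria miniata) embryos from mid gastrula until day 3, and their polyadenylated RNA was compared with that of untreated embryos of the same day. The comparison rests on 4 of the study's 16 libraries. BAPN embryos gave 1 library at 1.2 mM and 1 at 0.8 mM, and the labels name a control library of its own for each (control 1 for 1.2 mM, control 2 for 0.8 mM). All 4 were wild type, were made from pools of whole embryos raised in sea water, and differed by label only in BAPN. For comparison the text uses BAPN from hatched blastula to day 2 against day 2 controls and BAPN from mid gastrula to day 4 against day 4 controls, each with 2 libraries a group and BAPN at the same doses. The labels tie the day 4 controls to BAPN from hatched blastula to day 4 and name none for mid gastrula to day 4, so these are controls of the same day. Whether 2 libraries of a group stem from different cultures is not labelled. The p-values reflect a spread estimated from all 16 libraries in 8 groups, not from the 4 day 3 libraries alone. That spread may therefore be technical, and in the BAPN groups it includes the difference in dose.

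BAPN blocks lysyl oxidases, the secreted copper enzymes that oxidise lysines of collagen and elastin so that fibres can be cross-linked. Collagens are first trimmed by procollagen proteinases of the BMP1 and tolloid type and are anchored through basement membranes to integrins and other receptors. In a sea star embryo the gastrula forms gut, mesenchyme and coelomic pouches inside a large matrix-filled cavity, and over the following days it becomes a swimming, feeding larva with muscle, neurons and ciliary bands.

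Total counts were 12425016 and 12120516 in the BAPN libraries, against 14383817 and 13096450 in the controls. Log2 levels correlated at 0.975 between the BAPN libraries, at 0.983 between the controls and at 0.884 to 0.888 across the groups (Pearson's r across 17519 genes, which are not independent replicates). The 10 genes with most counts took 8.84% and 8.92% of counts under BAPN, against 6.44% and 6.21% in controls, and 18860 and 19309 genes had a count under BAPN, against 20264 and 19771. Genes of ribosomal RNA took 0.488% and 0.323% under BAPN, against 0.39% and 0.608%. Levels below are CPM (edgeR's counts relative to TMM-scaled library size), which compare a gene between libraries and are not corrected for gene length. Changes are log2(BAPN over control) ± SE from edgeR's quasi-likelihood test with Benjamini-Hochberg adjustment over the 17519 genes tested. A gene rose or fell where its adjusted p was under 0.05.

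At day 3 BAPN embryos had a higher level of 2992 genes (17.1% of those tested) and a lower level of 2641 (15.1%), together 5633 (32.2%). In each of the 5633 both BAPN libraries lay on the same side of both controls, as they did in 34.7% (above) and 37.7% (below) of all genes tested. A change of at least 1 on the log2 scale was called upward in 1890 genes (10.8%) and downward in 1536 (8.77%), and a change of at least 2 in 883 (5.04%) and 642 (3.66%). The balance of directions depends on scaling. With total counts in place of TMM, 2313 genes were higher and 3705 lower (38.4% of calls upward, against 53.1%), and the median change of all genes was -0.25 in place of -0.03. In embryos measured whole, fewer cells of a type and less RNA per cell cannot be told apart.

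**Figure D1:**
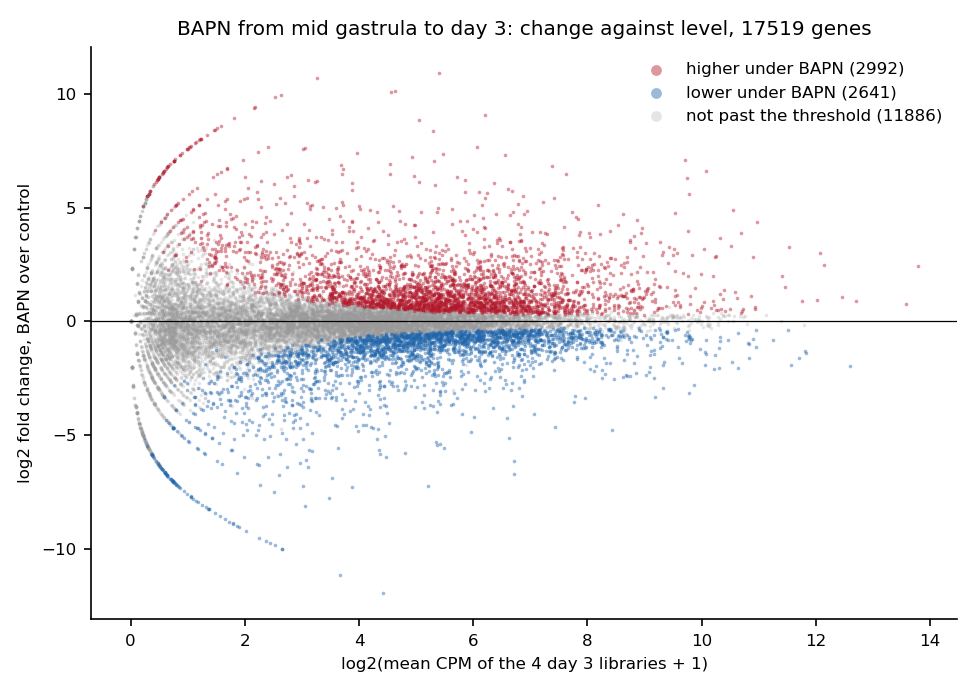
Change of each of the 17519 tested genes under BAPN from mid gastrula to day 3 (y axis, log2 of BAPN over control) against its mean level in the 4 day 3 libraries (x axis, log2 of CPM + 1). Red points are the 2992 genes higher under BAPN and blue points the 2641 lower, and grey points are genes not past an adjusted p of 0.05. Both directions hold genes of low and of high level.

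The changes of the dose pairs were correlated across genes. Across tested genes the change in the 1.2 mM pair and in the 0.8 mM pair had a Spearman correlation of 0.75. The median absolute change of the called genes was 1.22 in the 1.2 mM pair and 1.21 in the 0.8 mM pair. Of the 5633, 2883 (51.2%) had the larger change at 1.2 mM. The called genes were picked from these same libraries, in which both BAPN libraries lay on one side of both controls. These values are therefore no independent comparison of the doses. With 1 library at each dose there is no test of dose within this window.

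Among the matrix genes, the 2 tested lysyl oxidases were low and neither passed the test at day 3. Of the 2, 1 fell under BAPN from hatched blastula to day 2 and 1 from mid gastrula to day 4. Neither had a called difference between the day 3 effect and that of either window. Lysyl oxidase homolog 2A-like LOC119735518 had 1.9 and 4.68 CPM under BAPN, against 8.28 and 8.19 CPM in controls (-1.32 ± 0.51, adjusted p = 0.054). The BAPN libraries of this gene lay below both controls and differed from each other, and it passed with RLE scaling (adjusted p = 0.047), total counts (0.025), no filter (0.014), DESeq2 (0.031) or without the 0.8 mM library (0.027). Without the 1.2 mM library its adjusted p was 0.4, and over all alternatives it ran between 0.014 and 0.4. Its copy LOC119738367 had 2.64 and 1.92 CPM under BAPN, against 1.77 and 2.42 CPM in controls, values that overlapped (0.13 ± 0.94, adjusted p = 0.95).

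Few of the tested collagen genes were called. Of 106 collagen genes with a row of counts, 28 passed the filter, and the others were not tested. Of the 28 chains, 1 rose (3.57%) and 1 fell (3.57%), against 17.1% and 15.1% of all genes. Their median change was -0.36, and the fall no longer passed when any of the 4 libraries was left out. With total counts 3 fell. The chains of basement membrane collagen IV, picked after their values were seen, overlapped between the groups. Collagen alpha-2(IV) LOC119724226 had 373 and 490 CPM under BAPN, against 447 and 393 CPM in controls, and its neighbour alpha-5(IV) LOC119724229 had 552 and 731 CPM, against 677 and 613 CPM. The chain that rose was collagen alpha-1(I)-like LOC119741733, at 22.4 and 22.1 CPM under BAPN, against 3.53 and 6.04 CPM in controls (2.22 ± 0.46, adjusted p = 0.00074). The chain that fell was collagen alpha-1(I)-like LOC119734482, at 0.165 and 0.167 CPM under BAPN, against 1.7 and 3.56 CPM in controls (-3.9 ± 1.4, adjusted p = 0.04).

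Enzymes that process collagen were called more often upward. Of 14 collagen-modifying enzymes 5 rose (35.7%) and 1 fell (7.14%), against 17.1% and 15.1% of all genes. The median was 0.14, and -0.07 with total counts. The 5 were BMP1 and tolloid genes, the proteinases that cut the ends off procollagen. The count of rises was 3 without the 1.2 mM library, without control 1 or without control 2, and with total counts 3 members fell. Bone morphogenetic protein 1 homolog LOC119731558 had 317 and 344 CPM under BAPN, against 146 and 134 CPM in controls (1.23 ± 0.13, adjusted p = 1.5e-07). BMP1-like LOC119719287 had 11.9 and 10.2 CPM, against 1.1 and 0.604 CPM (3.68 ± 0.58, adjusted p = 2.9e-05). Tolloid-like LOC119740417 had 8.42 and 10.5 CPM, against 0.304 and 0.201 CPM (5.16 ± 0.96, adjusted p = 0.00022). The member that fell was procollagen galactosyltransferase 1-like LOC119720695, which adds sugar to collagen hydroxylysine, at 7.84 and 6.36 CPM, against 14.7 and 14.7 CPM (-1.05 ± 0.29, adjusted p = 0.0069). Without the 0.8 mM library it did not pass (-0.91, adjusted p = 0.08).

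Other matrix proteins changed in both directions, with more rises. Of 63 basement membrane and other matrix proteins 23 rose (36.5%) and 9 fell (14.3%), against 17.1% and 15.1% of all genes. Their median was 0.53 (0.32 with total counts). Fibrillins, the proteins of microfibrils, stood in both sets. Fibrillin-1-like LOC119736511 had 672 and 686 CPM under BAPN, against 116 and 111 CPM in controls (2.58 ± 0.16, adjusted p = 2.4e-11), and fibrillin-2-like LOC119745555 had 928 and 892 CPM, against 254 and 250 CPM (1.85 ± 0.12, adjusted p = 4.4e-11). In the other direction, and picked after its values were seen, fibrillin-2-like LOC119744245 had 126 and 170 CPM under BAPN, against 1180 and 1090 CPM in controls (-2.94 ± 0.33, adjusted p = 3.2e-05). Hemicentin-1-like LOC119734505, which links basement membranes, had 646 and 789 CPM, against 241 and 218 CPM (1.65 ± 0.13, adjusted p = 8.6e-10).

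Laminin subunits, which form the sheet of the basement membrane, were also mixed. The following members were picked after their values were seen. Laminin gamma-1-like LOC119720836 had 147 and 174 CPM under BAPN, against 81.4 and 73.9 CPM in controls, while its copy LOC119720710 had 365 and 445 CPM, against 706 and 685 CPM. Laminin beta-1-like LOC119721873 had 425 and 557 CPM under BAPN, against 837 and 726 CPM. The first of these rose, and the other two fell. Peroxidasin LOC119728508, which cross-links collagen IV, fell to 64 and 60.1 CPM, against 146 and 138 CPM in controls (-1.2 ± 0.14, adjusted p = 3.8e-07). Aggrecan-like LOC119734170, a cartilage-type proteoglycan in vertebrates, fell to 380 and 324 CPM, against 1240 and 1290 CPM.

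By counts the most heavily read matrix gene that fell by at least 1 was extracellular matrix protein 3-like LOC119733636, at 1840 and 2200 CPM under BAPN, against 5310 and 5180 CPM in controls (-1.38 ± 0.18, adjusted p = 5.7e-06). Both BAPN libraries were below both controls.

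Receptors and adhesion molecules were called upward in 14 (37.8%) and downward in 6 (16.2%) of 37 genes, against 17.1% and 15.1% of all genes. The median was 0.46, and 0.24 with total counts. The falls numbered 3 without the 1.2 mM library, and 4 without control 1 or without control 2. Discoidin domain receptor 2-like LOC119734382, a tyrosine kinase that binds collagen, had 384 and 471 CPM under BAPN, against 84.2 and 80.9 CPM in controls (2.37 ± 0.14, adjusted p = 1.1e-11). Syndecan-3-like LOC119724564, a heparan sulfate proteoglycan of the cell surface, had 1300 and 1470 CPM, against 511 and 506 CPM (1.45 ± 0.11, adjusted p = 5.8e-10). The cell-surface genes protocadherin Fat 1-like LOC119727667 (1.36 ± 0.12) and glypican-6-like LOC119723421 (1.47 ± 0.13) also rose. Vinculin-like LOC119725907, which ties adhesions to actin and was picked after its values were seen, fell to 61.9 and 72.5 CPM, against 144 and 132 CPM.

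Matrix proteases and inhibitors rose in 16 (38.1%) and fell in 6 (14.3%) of 42 genes, against 17.1% and 15.1% of all genes. The median was 0.45, and 0.23 with total counts. Matrix metalloproteinase-18-like LOC119735925, named after a frog collagenase, had 592 and 534 CPM under BAPN, against 17.7 and 15 CPM in controls (5.1 ± 0.23, adjusted p = 4.3e-12). A copy, LOC119727619, had 76.8 and 82.1 CPM, against 2.37 and 2.62 CPM (4.99 ± 0.29, adjusted p = 1.8e-11). Genes named for the 72 kDa type IV collagenase (gelatinase A) moved apart. LOC119720279 fell to 9.82 and 7.95 CPM under BAPN, against 76.8 and 72.3 CPM in controls (-3.07 ± 0.19, adjusted p = 2.5e-11), and LOC119730794, picked after its values were seen, had 56 and 63.5 CPM, against 10.7 and 7.58 CPM (2.71 ± 0.21, adjusted p = 1.1e-09). ADAMTS-like protein 5 LOC119745898, which binds microfibrils, fell to 15.8 and 13 CPM, against 200 and 180 CPM (-3.72 ± 0.19, adjusted p = 1.3e-12).

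**Figure D2:**
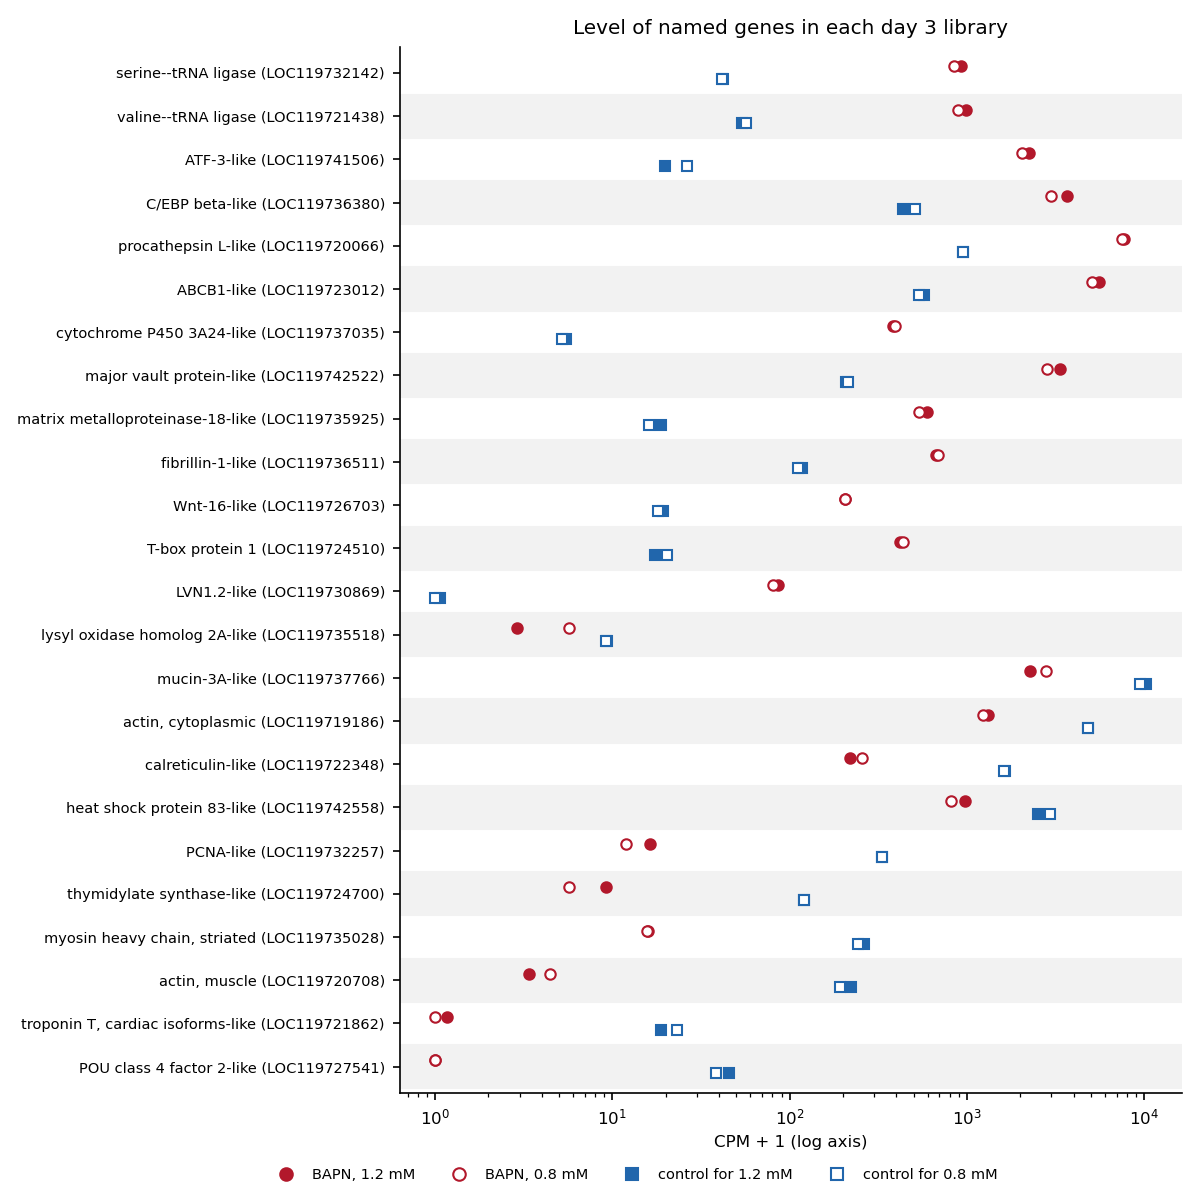
Level of 24 named genes in each of the 4 day 3 libraries (x axis, CPM + 1 on a log axis). Circles are BAPN libraries and squares controls, filled for the 1.2 mM pair and open for the 0.8 mM pair. Circles stand right of squares for 13 genes from serine tRNA ligase down to LVN1.2-like, and left of them for the others, with a gap between the groups in every row.

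Genes of protein synthesis and amino acid supply changed widely. Of 72 translation factors and tRNA synthetases 44 rose and 9 fell, with a median of 0.88 (0.66, and 15 falls, with total counts). Within this list, in a group formed by product name after the values were seen, 23 of 25 cytosolic tRNA ligases rose and none fell, with a median of 2.32. These enzymes load amino acids onto tRNAs. Serine tRNA ligase LOC119732142 had 930 and 848 CPM under BAPN, against 41.2 and 40.8 CPM in controls (4.44 ± 0.14, adjusted p = 3.3e-15). Valine tRNA ligase LOC119721438 had 982 and 891 CPM, against 52.7 and 56.1 CPM (4.11 ± 0.14, adjusted p = 4.4e-15). The ligases for leucine (LOC119727751, 2.36 ± 0.12) and methionine (LOC119745730, 2.73 ± 0.13) rose as well. Of 13 mitochondrial tRNA ligases 3 rose and none fell (median 0.09), and without the 1.2 mM library or without control 1 the rises numbered 1. The difference between the cytosolic and mitochondrial ligases was not tested.

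Initiation factors were divided. Of 53 genes with such a product name (a group also formed after the values were seen) 21 rose and 10 fell, with a median of 0.35. Initiation factor 5A-1-like LOC119746463 was among the largest rises, at 160 and 102 CPM under BAPN, against 0.73 and 0.537 CPM in controls (7.66 ± 0.38, adjusted p = 2.6e-10). Another gene of this family, LOC119744621, picked after its values were seen, had 623 and 687 CPM, against 543 and 540 CPM, and did not pass (0.28 ± 0.11, adjusted p = 0.051). The helicase eIF4A-like LOC119724337 rose to 2670 and 2390 CPM, against 1170 and 1190 CPM in controls (1.1 ± 0.11, adjusted p = 8.3e-08).

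Cytosolic ribosomal proteins changed less. Of 70 genes 11 rose and none fell, a smaller share than the 17.1% of all genes, and the median of 0.21 became -0.01 with total counts. The number that rose varied with the library left out. It was 3 without the 1.2 mM library, 27 without the 0.8 mM library, 6 without control 1, 9 without control 2 and 7 with total counts. Summed over the 70 genes, the level was 75328 CPM at 1.2 mM and 57390 CPM at 0.8 mM, against 55090 and 58143 CPM in controls, so the 1.2 mM library stood apart and the 0.8 mM library lay within the controls.

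Stress-responsive regulators of the bZIP family rose with the tRNA ligases. In a group formed by product name after the values were seen, 6 of 8 ATF and C/EBP genes rose and none fell (median 2.34). ATF-3-like LOC119741506, a factor induced by many stresses in vertebrates, had 2240 and 2040 CPM under BAPN, against 18.7 and 25.3 CPM in controls (6.6 ± 0.21, adjusted p = 9.3e-15). C/EBP beta-like LOC119736380 had 3670 and 2970 CPM, against 437 and 506 CPM (2.81 ± 0.14, adjusted p = 9.2e-13). Its neighbour on the same scaffold, C/EBP gamma-like LOC119736381, had 230 and 248 CPM, against 43.1 and 50.8 CPM (2.35 ± 0.16, adjusted p = 1.9e-10). Another group, also formed after the values were seen, put together tribbles, sestrins and growth arrest genes, and all 4 rose. Tribbles homolog 2-like LOC119724425, a pseudokinase, had 1850 and 1920 CPM under BAPN, against 203 and 218 CPM (3.16 ± 0.13, adjusted p = 5e-14). Sestrin-1-like LOC119729986 had 617 and 719 CPM, against 129 and 122 CPM (2.41 ± 0.16, adjusted p = 8.1e-11).

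Enzymes of serine, asparagine and one-carbon metabolism changed in both directions. Of 7 such genes, grouped by name after the values were seen, 2 rose and 5 fell. D-3-phosphoglycerate dehydrogenase-like LOC119728916, which opens the serine pathway, had 6.19 and 8.36 CPM under BAPN, against 95.1 and 86.8 CPM in controls (-3.64 ± 0.22, adjusted p = 2.5e-11). Phosphoserine aminotransferase-like LOC119718782, which acts next, had 19 and 29.4 CPM, against 158 and 172 CPM (-2.77 ± 0.43, adjusted p = 0.00051). Its neighbour, mitochondrial serine hydroxymethyltransferase LOC119718781, had 380 and 421 CPM, against 49.2 and 47.2 CPM (3.05 ± 0.15, adjusted p = 1.4e-12), whereas the cytosolic enzyme LOC119735109 had 26.2 and 23.7 CPM, against 125 and 116 CPM (-2.27 ± 0.18, adjusted p = 1.2e-09). Asparagine synthetase LOC119719489 rose to 491 and 520 CPM, against 141 and 133 CPM in controls (1.88 ± 0.13, adjusted p = 2.3e-10).

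Chaperones fell. Of 27 genes of the ER chaperone and unfolded protein response list 16 fell and 4 rose, with a median of -0.83, and 3 of the 4 that rose were ATF genes. Calreticulin-like LOC119722348, a calcium-binding chaperone of glycoproteins, had 218 and 256 CPM under BAPN, against 1640 and 1610 CPM in controls (-2.78 ± 0.16, adjusted p = 9.1e-12). Protein disulfide isomerase A6 LOC119724894, which forms disulfide bonds in secreted proteins, had 41 and 41.8 CPM, against 213 and 226 CPM (-2.4 ± 0.17, adjusted p = 2.4e-10). BiP-like LOC119720212, the ER member of the Hsp70 family and picked after its values were seen, had 236 and 297 CPM, against 986 and 1050 CPM (-1.93 ± 0.18, adjusted p = 7.3e-08).

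Outside the ER the same direction held in 18 of 21 heat shock proteins, with 1 rise and a median of -0.95. Heat shock protein 83-like LOC119742558, of the Hsp90 family, had 972 and 817 CPM under BAPN, against 2530 and 2960 CPM in controls (-1.62 ± 0.23, adjusted p = 5e-05). Heat shock cognate 71 LOC119729619 had 677 and 575 CPM, against 1710 and 1830 CPM (-1.5 ± 0.16, adjusted p = 2.1e-07). Proteasome subunits, grouped by name after the values were seen, fell in 26 of 36 genes with no rise (median -0.73). Proteasome beta type-3 LOC119719829 had 145 and 152 CPM, against 331 and 333 CPM (-1.16 ± 0.12, adjusted p = 1e-07).

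Lysosomal genes rose. Cathepsins, the proteases of the lysosome, rose in 8 of 11 genes and fell in none (median 2.53), V-type proton ATPase subunits, which acidify it, in 13 of 15 and none (median 1.17), and genes with a lysosomal product name in 16 of 25 with 2 falls (median 1.53; 1 fall without either control or without the 0.8 mM library). These 3 groups were formed after the values were seen, and the cathepsins also belong to the gut list. Procathepsin L-like LOC119720066 had 7740 and 7520 CPM under BAPN, against 952 and 952 CPM in controls (3 ± 0.13, adjusted p = 7.9e-14). Cathepsin B-like LOC119724861 had 521 and 451 CPM, against 38 and 36 CPM (3.72 ± 0.16, adjusted p = 1.5e-13). Lysosome-associated membrane glycoprotein 1-like LOC119723704 had 1400 and 1370 CPM, against 345 and 351 CPM (1.99 ± 0.1, adjusted p = 2.3e-12). In each of these the BAPN libraries stood close together and far above the controls. The iron store soma ferritin-like LOC119726597 rose to 4680 and 3670 CPM, against 1390 and 1530 CPM (1.52 ± 0.13, adjusted p = 8.3e-09).

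Some efflux pumps and detoxifying enzymes were among the genes that rose by at least 2 on the log2 scale. Of 344 transporters 68 rose and 50 fell (median 0.12, and -0.10 with total counts), shares of 19.8% and 14.5% that are near those of all genes. The falls numbered 30 to 32 when any library was left out. ABCB1-like LOC119723012, a multidrug efflux pump, had 5550 and 5110 CPM under BAPN, against 573 and 539 CPM in controls (3.26 ± 0.12, adjusted p = 1.2e-14). Multidrug resistance-associated protein 4-like LOC119739678 had 542 and 566 CPM, against 41.5 and 34.6 CPM (3.86 ± 0.14, adjusted p = 7.2e-15). Major vault protein-like LOC119742522, the shell of the vault particle, rose to 3370 and 2840 CPM, against 208 and 213 CPM (3.88 ± 0.14, adjusted p = 7.2e-15). Telomerase protein component 1-like LOC119729498, named for an RNA-binding protein of vaults and telomerase, rose to 3210 and 2590 CPM, against 94.5 and 98.6 CPM (4.91 ± 0.17, adjusted p = 5.6e-15). Of 10 genes with either name, grouped after the values were seen, 6 rose and 1 fell, and the fall no longer passed when any of the 4 libraries was left out. With total counts 3 rose and 2 fell.

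Cytochrome P450 genes, a large family of oxidising enzymes, moved both ways. Of 111 genes 27 rose and 24 fell, both shares above those of all genes, with a median of -0.08. Several of the largest rises were P450 3A copies of a single cluster on scaffold NW_024037069.1 of Pmin_3.0, between positions 19893872 and 19969333. P450 3A24-like LOC119737035 had 384 and 391 CPM under BAPN, against 4.5 and 4.23 CPM in controls (6.47 ± 0.19, adjusted p = 1.3e-15), and P450 3A6-like LOC119737034 had 322 and 334 CPM, against 3.35 and 2.35 CPM (6.83 ± 0.2, adjusted p = 1.3e-15). P450 3A13-like LOC119737036 had 3.47 and 4.52 CPM and no count in the controls, at least 41.7-fold higher against a floor of 3 counts over both controls. The last copy in the cluster, P450 3A6-like LOC119737040, picked after its values were seen, had 103 and 115 CPM, against 7.97 and 11.9 CPM (3.46 ± 0.25, adjusted p = 1.7e-09). Where copies are alike, reads may have been divided among them by the counting. At the other extreme P450 2J6-like LOC119743226 had no count under BAPN, against 9.56 and 7.18 CPM in controls, at least 67.1-fold lower.

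Conjugating enzymes fell more often than they rose. Of 102 phase II genes 23 fell and 4 rose (median -0.78), and with total counts 35 fell. The list nonetheless holds some of the largest rises. Histamine N-methyltransferase-like LOC119730557 had 64.4 and 63.6 CPM under BAPN, against 0.122 and 0.134 CPM in controls (8.86 ± 0.37, adjusted p = 6.6e-14), and sulfotransferase 1A1-like LOC119730908 had 118 and 106 CPM, against 1.77 and 1.21 CPM (6.21 ± 0.27, adjusted p = 2.8e-13). Glutathione S-transferase theta-1-like LOC119732217 fell to 42.3 and 43.5 CPM, against 180 and 194 CPM (-2.12 ± 0.16, adjusted p = 4.6e-10). Redox enzymes rose in 9 and fell in 17 of 64 genes (median -0.36), and the falls numbered 10 without the 1.2 mM library. Of the 64 redox genes 14.1% rose and 26.6% fell, against 17.1% and 15.1% of all genes. Quinone oxidoreductase-like LOC119723346 rose to 208 and 172 CPM, against 3.71 and 2.89 CPM (5.84 ± 0.23, adjusted p = 1.9e-14).

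Genes of cell division fell. Of 82 cell cycle and DNA replication genes 49 fell and 6 rose, with a median of -1.02, and 43 to 47 fell when any library was left out. Proliferating cell nuclear antigen LOC119732257, the sliding clamp of DNA polymerases, had 15.4 and 10.9 CPM under BAPN, against 329 and 333 CPM in controls (-4.65 ± 0.24, adjusted p = 5.1e-11). Thymidylate synthase LOC119724700, which makes a DNA precursor, had 8.17 and 4.68 CPM, against 120 and 120 CPM (-4.22 ± 0.22, adjusted p = 2.4e-12). The replicative helicase subunit mcm5-like LOC119741031 had 7.76 and 6.27 CPM, against 90.5 and 87.8 CPM (-3.66 ± 0.2, adjusted p = 5e-12), and the catalytic subunit of DNA polymerase alpha LOC119723854 had 30.2 and 31.7 CPM, against 143 and 139 CPM (-2.19 ± 0.15, adjusted p = 1.6e-10). Cyclin-dependent kinase 1 LOC119732208, which drives entry into mitosis, fell to 82.8 and 81.3 CPM, against 232 and 236 CPM (-1.51 ± 0.16, adjusted p = 1e-07), picked after its values were seen. Of the 6 that rose, also picked so, cyclin-D2-like LOC119722677 had 885 and 968 CPM, against 553 and 558 CPM (0.74 ± 0.14, adjusted p = 0.0002).

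Among 40 histones 4 rose (10%) and 6 fell (15%), shares not above the 17.1% and 15.1% of all genes. Fewer histones fell when any library was left out. Histone H2A.V LOC119732127, a variant of the histone H2A core protein, fell to 419 and 478 CPM, against 1910 and 1930 CPM (-2.1 ± 0.14, adjusted p = 1e-10). Of 155 genes of the mitochondrial ribosome and respiratory chain 52 fell and 4 rose (median -0.34). The rises numbered 1 without the 1.2 mM library and 2 without either control or with total counts. ATP synthase subunit beta LOC119723015 had 418 and 394 CPM under BAPN, against 831 and 869 CPM in controls (-1.07 ± 0.12, adjusted p = 2.4e-07). The list of 30 apoptosis genes had 5 rises and 3 falls, shares below those of all genes, and 6 falls with total counts. Its rises included bcl-2-like protein 1 LOC119742144, an inhibitor of cell death in vertebrates, at 227 and 239 CPM, against 40 and 38.1 CPM (2.57 ± 0.15, adjusted p = 1.9e-11), and the executioner protease caspase-7-like LOC119735747 at 29.3 and 29.7 CPM, against 1.1 and 0.805 CPM (4.93 ± 0.28, adjusted p = 2.1e-11).

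**Figure D3:**
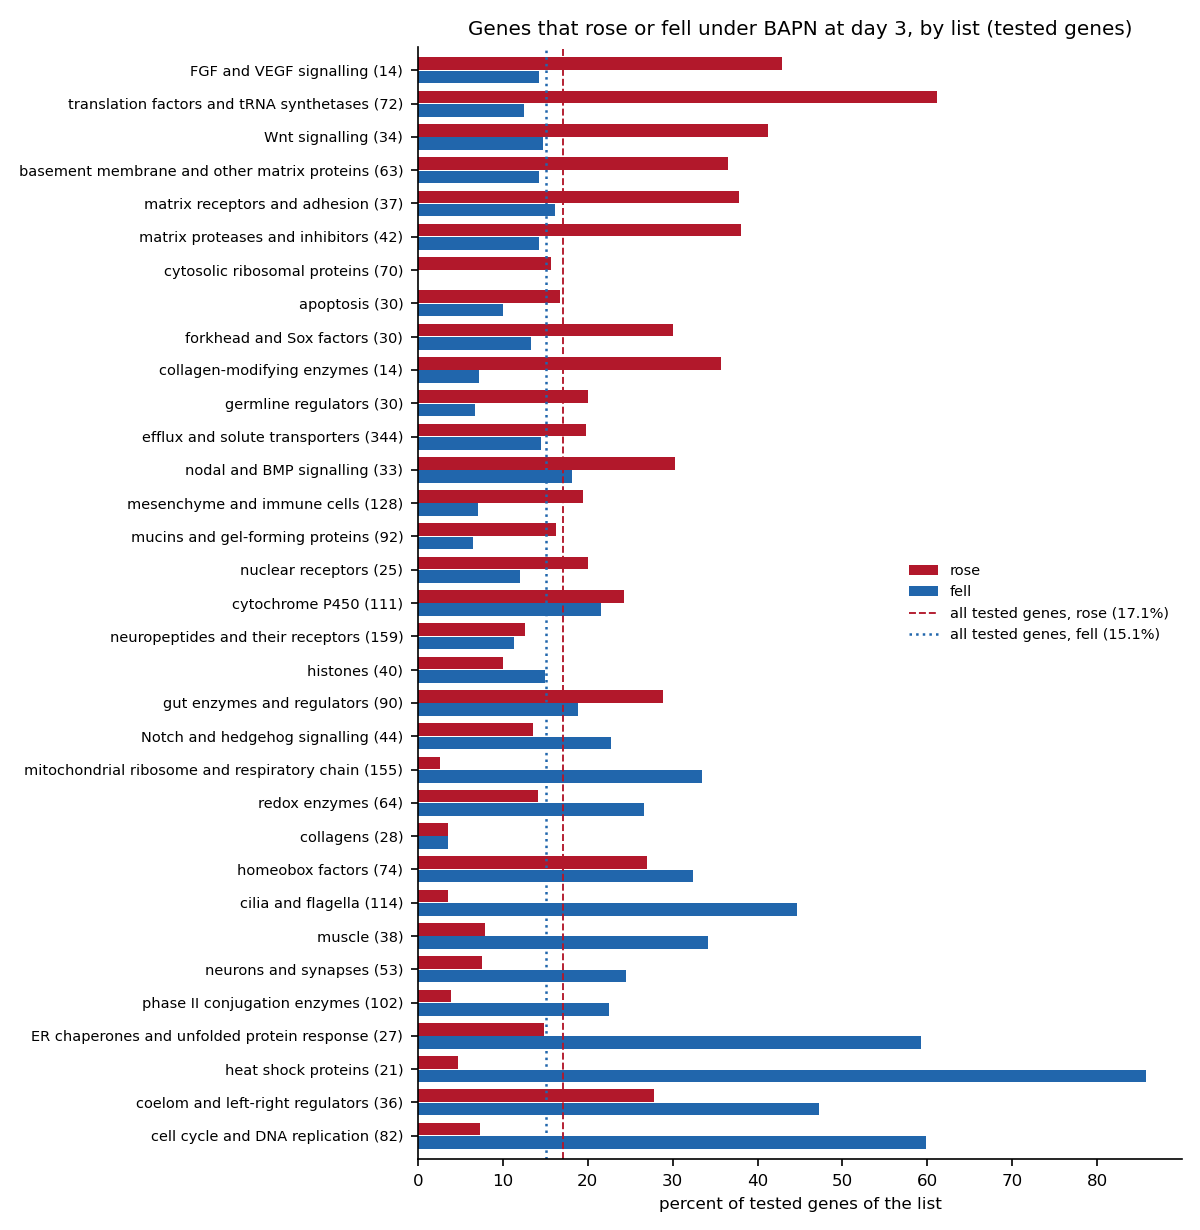
Percent of the tested genes of each list that rose (red) or fell (blue) under BAPN at day 3, with the number of tested genes in brackets and lists ordered by median change from the highest at the top. The dashed red line marks the 17.1% and the dotted blue line the 15.1% of all tested genes that rose and fell. Translation factors lead the rises, and heat shock proteins, cell cycle genes and ER chaperones lead the falls.

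Muscle and neuronal genes were called more often downward than upward. Of 38 muscle genes 13 fell and 3 rose (median -0.52), and 7 fell without the 1.2 mM library, 8 without either control and 9 without the 0.8 mM library. Muscle actin LOC119720708 had 2.39 and 3.43 CPM under BAPN, against 220 and 191 CPM in controls (-6.14 ± 0.33, adjusted p = 8.5e-10). Striated myosin heavy chain LOC119735028, the motor of the contractile fibre, had 14.9 and 14.7 CPM, against 261 and 243 CPM (-4.09 ± 0.27, adjusted p = 9.3e-09). Troponin T LOC119721862, of the calcium switch of muscle, had 0.165 and 0 CPM, or 2 counts in all, against 17.9 and 22.3 CPM, a ratio of 0.00415 (95% exact interval 0.000502 to 0.0151, counting error only). Troponin I LOC119721916 fell less, to 55 and 63.8 CPM, against 158 and 164 CPM (-1.44 ± 0.14, adjusted p = 3.3e-08), as did tropomyosin LOC119745877 (-1.16 ± 0.11, adjusted p = 3.7e-08). The 3 that rose were, with values seen first, 2 copies of the M-line protein unc-89 and the regulator MEF2C.

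Neuronal genes fell in 13 and rose in 4 of 53 cases (median -0.60). The factor POU4F2-like LOC119727541, known from sensory neurons, had no count in either BAPN library, against 44.6 and 37.2 CPM in controls, at least 328-fold lower. Protein glass-like LOC119739575, a regulator of photoreceptors in flies, had none either, against 8.58 and 12.5 CPM, at least 84.5-fold lower. Synaptotagmin-16-like LOC119742890 fell less, to 140 and 175 CPM, against 349 and 343 CPM (-1.13 ± 0.12, adjusted p = 1.1e-07). Of members picked after their values were seen, neurogenin-1-like LOC119731489, which starts neuronal fate, had 0.578 and 0.335 CPM, against 5.11 and 6.31 CPM, and tryptophan 5-hydroxylase LOC119740445, of serotonin synthesis, rose to 36.6 and 39.9 CPM, against 17 and 14.4 CPM. Vesicular glutamate transporter LOC119726821 rose as well, to 60.1 and 66.2 CPM, against 15.1 and 7.98 CPM (2.45 ± 0.26, adjusted p = 1.7e-07).

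Neuropeptides and their receptors had 20 rises and 18 falls among 159 genes, below the shares of all genes, and each library left out lowered these counts, to 11 to 18 rises and 10 to 14 falls. The rises included alpha-2A adrenergic receptor-like LOC119737386, at 326 and 253 CPM, against 73.6 and 72.5 CPM (1.99 ± 0.15, adjusted p = 7.1e-10), and serotonin receptor 7-like LOC119741183, at 77.7 and 71.7 CPM, against 19.2 and 17.8 CPM (2.01 ± 0.19, adjusted p = 1.6e-08).

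Genes of motile cilia fell by small amounts. Of 114 genes 51 fell and 4 rose, with a median of -0.48, and 74 fell with total counts. The falls numbered 27 without the 1.2 mM library or without control 2. Radial spoke head protein 9 LOC119742585, part of the axoneme, had 44.5 and 45.2 CPM under BAPN, against 131 and 130 CPM in controls (-1.54 ± 0.18, adjusted p = 5.7e-07). The exceptions were large. Dynein assembly factor 4 LOC119744836, which preassembles ciliary motors, had 137 and 129 CPM, against 12.4 and 9.06 CPM (3.64 ± 0.25, adjusted p = 1.3e-09). Cilia- and flagella-associated protein 251-like LOC119721168 had 320 and 287 CPM, against 54.1 and 59.7 CPM (2.42 ± 0.15, adjusted p = 2.5e-11).

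In the gut list the copies of single families separated. Of 90 genes 26 rose (28.9%) and 17 fell (18.9%), against 17.1% and 15.1% of all genes. The median was -0.20, and 8 of the 26 were the cathepsins described above. LVN1.2-like genes are named after an endoderm-specific gene of sea urchin embryos. LOC119730869 had 84.6 and 79.7 CPM under BAPN, against 0.0609 and 0 CPM in controls, and LOC119730870 on the same scaffold had 55.5 and 39.8 CPM, against 0.0609 and 0 CPM. With 1 count in the controls each, the ratios were 2570 (95% exact interval 462 to 102000) and 1500 (268 to 59100). The most heavily read copy, LOC119730327, had 8110 and 7140 CPM, against 3610 and 3570 CPM (1.09 ± 0.13, adjusted p = 5.5e-07). Another copy, LOC119737744, picked after its values were seen, had 0.33 and 0.586 CPM under BAPN, against 71.9 and 71.2 CPM (-7.26 ± 0.53, adjusted p = 1.9e-08).

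Digestive enzymes and gut regulators, picked after their values were seen, were also divided. Trypsin-1-like LOC119733092 had 0.248 and 0 CPM under BAPN, against 9.62 and 7.31 CPM in controls, and sucrase-isomaltase-like LOC119745545 had 2.31 and 3.76 CPM, against 28.6 and 25.3 CPM. Hepatocyte nuclear factor 6-like LOC119726019, a regulator of endoderm in vertebrates, fell to 27.9 and 35.3 CPM, against 199 and 205 CPM (-2.68 ± 0.25, adjusted p = 1.8e-07). The endoderm regulator FoxA2-like LOC119740965 rose to 778 and 681 CPM, against 525 and 459 CPM (0.57 ± 0.12, adjusted p = 0.00063). Mucin-3A-like LOC119737766 fell to 2260 and 2810 CPM, against 10300 and 9460 CPM (-1.96 ± 0.15, adjusted p = 8.5e-10). Of 92 mucins and related genes 15 rose (16.3%) and 6 fell (6.52%; 10 with total counts). These shares were below the 17.1% and 15.1% of all genes.

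Regulators of the coelom and of left and right were called in 27 of 36 genes, 10 upward and 17 downward (median -0.99). The falls numbered 10 without the 1.2 mM library, 8 without control 1, 7 without the 0.8 mM library and 11 without control 2. T-box protein 1 LOC119724510, a regulator of pharyngeal mesoderm in vertebrates, had 418 and 437 CPM under BAPN, against 16.3 and 19.4 CPM in controls (4.58 ± 0.2, adjusted p = 7.7e-13). FoxF1-like LOC119737216, of visceral mesoderm, had 47.6 and 39.3 CPM, against 7.24 and 8.66 CPM (2.45 ± 0.23, adjusted p = 1.9e-08). Of members picked after their values were seen, the left-right regulator Pitx (pituitary homeobox x-like) LOC119731189 had 2.48 and 1.17 CPM, against 77.9 and 79.8 CPM (-5.42 ± 0.46, adjusted p = 9.7e-08), and Pax-6-like LOC119738408 had 38 and 39.9 CPM, against 96.1 and 96.7 CPM (-1.31 ± 0.22, adjusted p = 7.2e-05). The 2 SIX6-like copies LOC119721027 (1.88 ± 0.13) and LOC119721019 (1.65 ± 0.17) both rose.

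The wider homeobox list had 20 rises and 24 falls among 74 genes (median -0.44), both above the shares of all genes. The falls numbered 16 without the 0.8 mM library. MNX-like LOC119721048, of motor neurons and pancreas in vertebrates, had no count under BAPN, against 11.3 and 9.8 CPM in controls, at least 84.5-fold lower. Vent1-like LOC119739858, a ventral regulator in frogs, rose to 210 and 205 CPM, against 30.9 and 35.7 CPM (2.64 ± 0.18, adjusted p = 1.2e-10). Even-skipped homolog LOC119745851 rose to 107 and 101 CPM, against 36.7 and 32.6 CPM (1.58 ± 0.15, adjusted p = 2.2e-08). Of 30 forkhead and Sox factors 9 rose and 4 fell (median 0.18, and -0.03 with total counts), and the falls numbered 2 without the 1.2 mM library, 1 without each of the others and 8 with total counts. Sox-3-like LOC119723839, of early ectoderm, rose to 4720 and 4330 CPM, against 2380 and 2430 CPM (0.91 ± 0.14, adjusted p = 2.6e-05).

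Of 25 nuclear receptors 5 rose (20%) and 3 fell (12%), near the 17.1% and 15.1% of all genes. The median was -0.02, and with total counts 3 rose. Nuclear receptor 0B1-like LOC119721379, a receptor without a DNA-binding domain in vertebrates, had 197 and 232 CPM under BAPN, against 26.8 and 19.3 CPM in controls (3.22 ± 0.2, adjusted p = 1e-10).

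Genes of Wnt and FGF signalling were called more often upward than downward. Of 34 Wnt genes 14 rose (41.2%) and 5 fell (14.7%), against 17.1% and 15.1% of all genes. Their median was 0.58 (0.36 with total counts). The ligand Wnt-16-like LOC119726703 had 203 and 204 CPM under BAPN, against 18.2 and 17 CPM in controls (3.53 ± 0.18, adjusted p = 1.1e-12), and Wnt-8b-like LOC119730682 had 372 and 296 CPM, against 42.8 and 46.8 CPM (2.9 ± 0.24, adjusted p = 9.9e-08). Wntless LOC119737736, which carries Wnt ligands out of the cell, had 163 and 147 CPM, against 51.6 and 54.2 CPM (1.55 ± 0.16, adjusted p = 1e-07). Downstream, the transcriptional partner TCF7L2 LOC119732565 (1.73 ± 0.15) and beta-catenin LOC119741863 rose, the second to 2000 and 2180 CPM, against 1040 and 1040 CPM (1.01 ± 0.11, adjusted p = 1.1e-07). The 5 falls were 4 ligands and a secreted antagonist, among them Wnt-5b-like LOC119726771 at 28.3 and 25.9 CPM, against 91.4 and 91.5 CPM (-1.75 ± 0.24, adjusted p = 6.8e-06), picked after its values were seen.

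In the nodal and BMP list 10 of 33 genes rose (30.3%) and 6 fell (18.2%), against 17.1% and 15.1% of all genes. The median was 0.09, and -0.13 with total counts. Without control 2 there were 5 rises and 6 falls, and with total counts 7 rises and 7 falls. The intracellular transducers Smad5-like LOC119727472 and Smad4-like LOC119729887 rose, the first to 408 and 420 CPM, against 88.4 and 85.6 CPM (2.25 ± 0.13, adjusted p = 6.5e-12), and the second to 230 and 266 CPM, against 96.7 and 92.1 CPM (1.39 ± 0.12, adjusted p = 7.6e-09). The secreted BMP modulator kielin/chordin-like LOC119721939 fell to 50.3 and 60.1 CPM, against 119 and 106 CPM (-1.02 ± 0.14, adjusted p = 7.2e-06). Nodal LOC119731756, the ligand of the left-right pathway, had 110 and 81.6 CPM, against 98.1 and 88.9 CPM, values that overlapped, and its relative univin-like LOC119741587 fell to 29.1 and 24.1 CPM, against 52.4 and 47.1 CPM (-0.9 ± 0.2, adjusted p = 0.0011). Both were picked after their values were seen.

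Among 14 genes of FGF and VEGF signalling 6 rose and 2 fell (median 1.06), and 1 fell when any library was left out. VEGF receptor 1-like LOC119719573 had 105 and 119 CPM under BAPN, against 27.8 and 25.6 CPM in controls (2.07 ± 0.15, adjusted p = 5.8e-10), and the ligand FGF18-like LOC119739740 had 235 and 199 CPM, against 70.7 and 65.2 CPM (1.67 ± 0.15, adjusted p = 9.9e-09). The shares of the FGF and VEGF genes were 42.9% and 14.3%, against 17.1% and 15.1% of all genes. Of 44 Notch and hedgehog genes 6 rose (13.6%) and 10 fell (22.7%), with a median of -0.26. Genes named for the notch receptor share repeats with many proteins and moved both ways, LOC119722579 by 1.83 ± 0.13 and LOC119735676 by -2.01 ± 0.14. The ligand indian hedgehog-like LOC119729696 fell to 12.7 and 8.11 CPM, against 37.3 and 37 CPM (-1.83 ± 0.24, adjusted p = 2.2e-06), and its transducer smoothened LOC119724919 rose to 88.3 and 81.6 CPM, against 45.4 and 36.3 CPM (1.05 ± 0.16, adjusted p = 1.7e-05), both picked after their values were seen.

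Germline regulators changed little as a list. Of 30 genes 6 rose and 2 fell (median 0.12, and -0.09 with total counts), a share of rises close to that of all genes. The rises numbered 4 without the 0.8 mM library, without control 2, or with total counts. Both genes named for the germline helicase DDX4 (vasa) rose, LOC119728304 to 57 and 51.8 CPM, against 30 and 29.9 CPM, and LOC119742591 to 39.1 and 38 CPM, against 25.6 and 20.2 CPM (0.86 ± 0.16 and 0.75 ± 0.18, adjusted p = 0.00017 and 0.0029). The second did not pass without control 2 (0.58, adjusted p = 0.08). Nanos LOC119721081, a translational repressor of germ cells, had 9.9 and 6.19 CPM, against 4.75 and 4.97 CPM (0.73 ± 0.38, adjusted p = 0.16). Bicaudal C LOC119729938, an RNA-binding regulator, rose to 386 and 448 CPM, against 153 and 159 CPM (1.42 ± 0.14, adjusted p = 5.9e-08).

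Of 128 genes of mesenchyme and immune cells 25 rose (19.5%) and 9 fell (7.03%), against 17.1% and 15.1% of all genes. The share of rises is near that of all genes. The median was 0.06 (-0.15 with total counts), and fewer genes fell when any library was left out. Macrophage-expressed gene 1-like LOC119725736, a pore-forming protein of phagocytes in vertebrates, had 274 and 182 CPM under BAPN, against 6.09 and 3.89 CPM in controls (5.5 ± 0.26, adjusted p = 4.4e-11). The SAM pointed domain Ets factor LOC119719393, named after a factor of epithelial cells, had 438 and 499 CPM, against 76.2 and 87.5 CPM (2.52 ± 0.19, adjusted p = 5.1e-09). Complement C3-like LOC119721049, of innate defence and picked after its values were seen, rose less, to 1470 and 1560 CPM, against 829 and 815 CPM (0.88 ± 0.13, adjusted p = 1.4e-05).

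The changes were set against normal development, taken as the difference between day 4 and day 2 controls. The day 3 contrast does not hold these libraries. The same model of all 16 libraries gave the spread and scaling for both, so their calls are not independent. Of 3836 genes (21.9% of those tested) that were higher on day 4 than on day 2 in controls, 940 rose (24.5%) and 864 fell (22.5%) under BAPN at day 3. Among the 1553 of these with a normal rise of at least 2 on the log2 scale, 250 rose (16.1%) and 403 fell (25.9%), with a median BAPN change of -0.58. Lower on day 4 were 2854 genes (16.3%), and of the 236 with a normal fall of that size 59 rose (25%) and 35 fell (14.8%), with a median of 0.18. Among 10829 genes not called between these controls, 12.5% rose and 10.3% fell. Their median log2(CPM + 1) in the day 3 controls was 2.84 and 2.84. It was 4.3 and 4.3 for genes higher on day 4, and 5.26 and 5.22 for genes lower on day 4. Whether level accounts for the smaller shares was not tested.

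**Figure D4:**
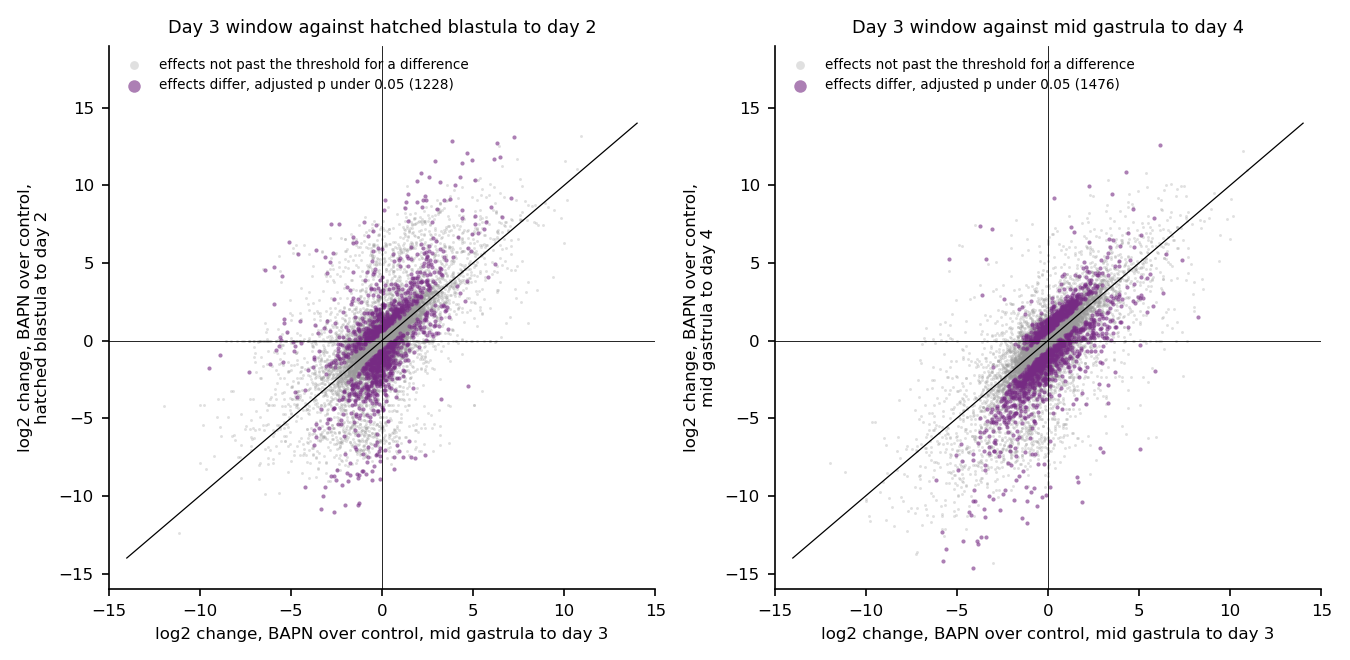
Change under BAPN from mid gastrula to day 3 (x axes, log2 of BAPN over control) against the change under BAPN from hatched blastula to day 2 (left) and from mid gastrula to day 4 (right; y axes, same unit), one point per tested gene. Purple points are the 1228 and 1476 genes whose effects differed past an adjusted p of 0.05, and the diagonal marks equal effects. The 3 windows share no library, and 95.4% of the genes that rose and 91.7% of those that fell at day 3 had a change of the same sign in the day 2 window.

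The other windows had more calls, 7264 for hatched blastula to day 2 (41.5%, with 21.8% higher and 19.7% lower) and 8076 for mid gastrula to day 4 (46.1%, with 21.9% higher and 24.2% lower). No library is shared among the 3 windows, but the same model of all 16 libraries gave the spread for each. Of the 2992 genes that rose at day 3, 82.3% also rose in the day 2 window (64.5% of its rises) and 83.4% in the day 4 window (64.9% of its rises). Of the 2641 that fell, 69.4% fell in the day 2 window (53.1% of its falls) and 83.6% in the day 4 window (52.2% of its falls). Calls of opposite direction numbered 64 in the day 2 window (30 of the rises, 34 of the falls) and 80 in the day 4 window (60 of the rises, 20 of the falls). Genes called at day 3 and in neither other window numbered 253, of which 111 rose.

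Tests of the difference itself called fewer genes. The day 3 effect differed from the day 2 effect in 1228 genes (7.01%), higher in 592 (3.38%) and lower in 636 (3.63%). The count was 718 without the 1.2 mM library, 794 without the 0.8 mM library, 631 without control 1 and 607 without control 2. The day 4 effect differed from the day 3 effect in 1476 genes (8.43%), higher in 547 (3.12%) and lower in 929 (5.3%), and with total counts higher in 832 and lower in 757. That count was 924 without the 0.8 mM day 3 library, 837 and 809 without day 3 control 1 or 2, and 953 and 878 without day 4 control 1 or 2. Both differences use the day 3 libraries, so they are not independent of each other.

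Muscle actin and myosin heavy chain were among the named genes whose effects differed between windows. Muscle actin LOC119720708 had 2.22 and 1.01 CPM under BAPN at day 2, 2.39 and 3.43 CPM at day 3, and 0.544 and 1.5 CPM at day 4. Its controls had 4.56 and 4.8 CPM at day 2, 220 and 191 CPM at day 3, and 441 and 626 CPM at day 4. Its log2 effect was lower in the day 3 window than in the day 2 window (difference -4.65 ± 0.63, adjusted p = 0.00027) and lower again in the day 4 window (difference -2.85 ± 0.56, adjusted p = 0.0044). Myosin heavy chain LOC119735028 had 0.341 and 0 CPM under BAPN at day 2, 14.9 and 14.7 CPM at day 3, and 5.17 and 4 CPM at day 4. Its controls had 10.7 and 9.6 CPM at day 2, 261 and 243 CPM at day 3, and 857 and 1070 CPM at day 4. The day 4 effect was the lower one (difference from day 3 -3.63 ± 0.38, adjusted p = 3.8e-05). The BAPN libraries of this gene were above their day 2 level on both later days and below the controls on each day.

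The reverse course, a control level that was lower at later days, was seen in other genes. T-box protein 1 LOC119724510 had 594 and 601 CPM under BAPN at day 2 and 418 and 437 CPM at day 3, against 96.5 and 112 CPM in day 2 controls and 16.3 and 19.4 CPM in day 3 controls (day 3 effect higher by 2.07 ± 0.25, adjusted p = 3.2e-05). Fibrillin-1-like LOC119736511 had 544 and 566 CPM under BAPN at day 2 and 672 and 686 CPM at day 3, against 337 and 422 CPM and then 116 and 111 CPM in controls (higher by 2.04 ± 0.21, adjusted p = 2.4e-06). PR domain zinc finger 1 LOC119745514, a germ cell regulator in mammals, had opposite calls. It had 104 and 124 CPM under BAPN at day 2, against 209 and 218 CPM in controls, and 187 and 169 CPM at day 3, against 90.5 and 83 CPM (1.94 ± 0.22 between the effects, adjusted p = 6.3e-06).

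Some genes that rose at day 3 did not rise by day 4 of the same start or changed direction. Mucin-5AC-like LOC119724400 had 103 and 102 CPM under BAPN at day 4, against 181 and 187 CPM in controls, whereas at day 3 it had 165 and 176 CPM, against 55.5 and 48.2 CPM (difference -2.56 ± 0.19, adjusted p = 2.1e-08). LVN1.2-like LOC119730327 had 10200 and 9270 CPM under BAPN at day 4, against 14000 and 13700 CPM in controls (difference -1.6 ± 0.18, adjusted p = 6.3e-06). The Ets factor LOC119719393 had 634 and 472 CPM at day 4, against 513 and 494 CPM, values that overlapped (difference -2.38 ± 0.26, adjusted p = 1.3e-05).

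**Figure D5:**
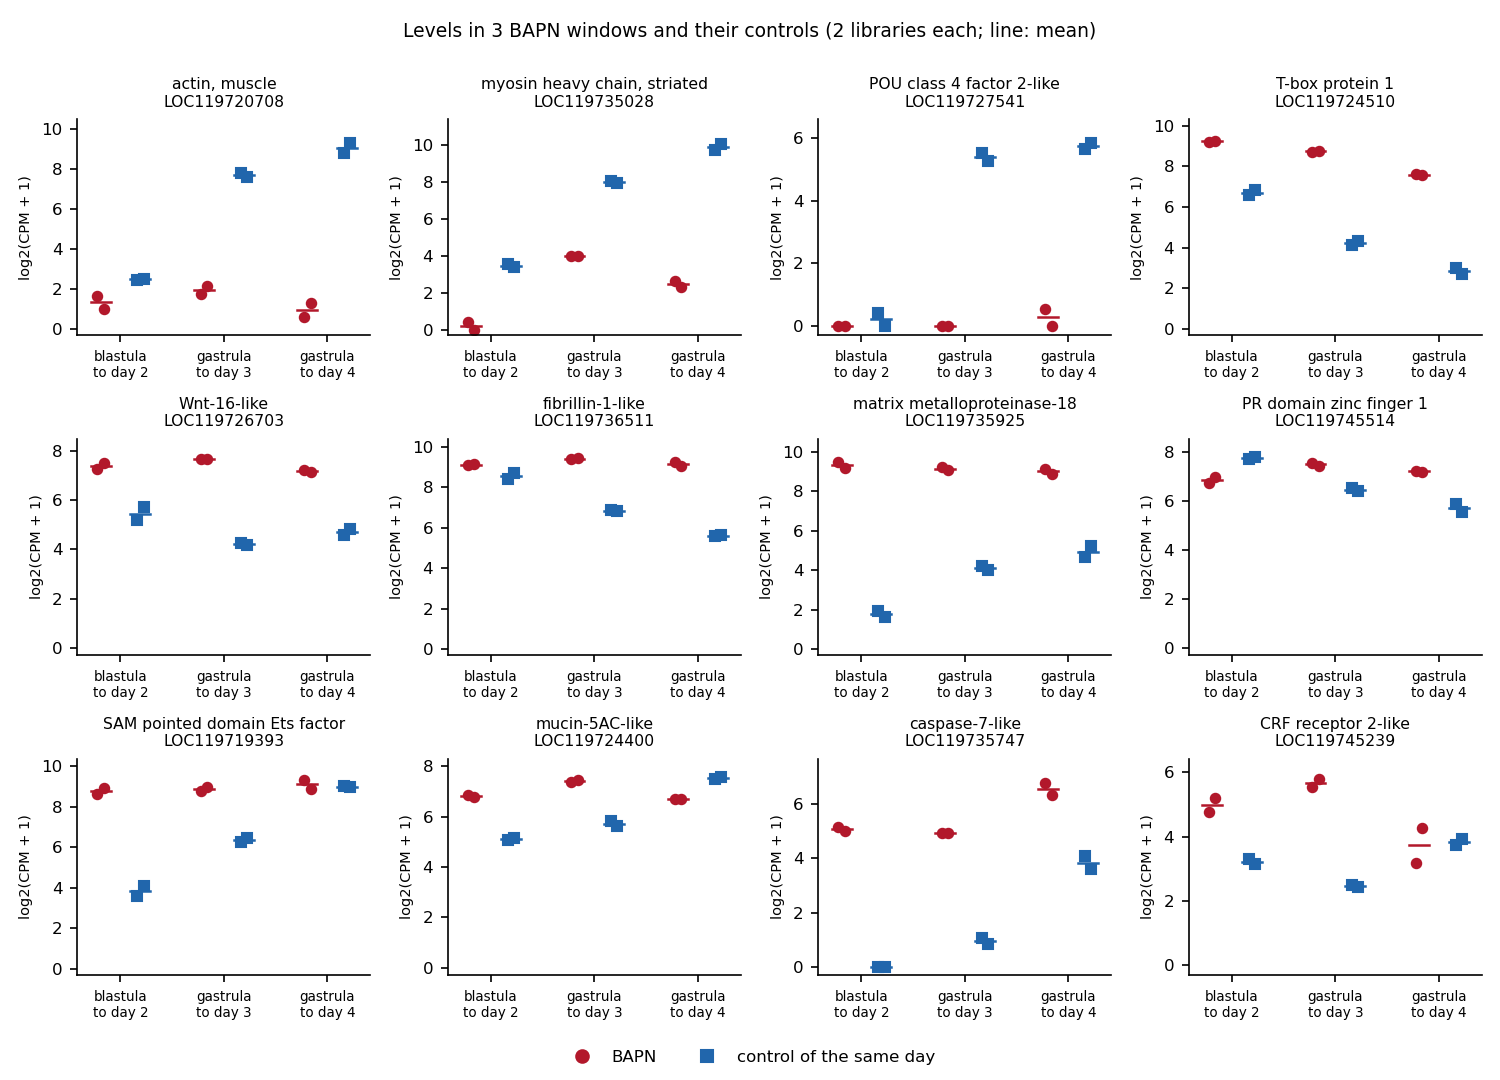
Level (y axes, log2 of CPM + 1) of 12 genes in the BAPN libraries (red circles) and in the controls of the same day (blue squares) of 3 windows, with 2 libraries per group and a line at their mean. Muscle actin and myosin heavy chain have controls that are higher at later days, with BAPN libraries that are low on each day for muscle actin and highest on day 3 for myosin heavy chain. T-box protein 1 and fibrillin-1-like have controls that are lower at later days. PR domain zinc finger 1 is lower under BAPN at day 2 and higher at day 3 and day 4.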

How the data were processed

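PolyA RNA of whole embryos was sequenced as stranded paired-end libraries, per the labels. Unnormalised counts of reads for each gene were deposited by the authors. The alignment and counting tools were not given in the sources used here. Of 27818 genes in the table, 19268 had a product name in NCBI's Pmin_3.0 gene table, whose starts and ends equal those deposited. One edgeR 4.0.16 quasi-likelihood model (R 4.3.3, limma 3.58.1; robust; TMM; filterByExpr with counts of at least 10 and 15 in total) held all 16 libraries in 8 groups, with 8 residual degrees of freedom, and 17519 genes passed the filter. Of the others, 4125 had no count. SE is the absolute log2 change over the square root of F. Correlations of log2 levels and the changes of the dose pairs use CPM logged with a prior count of 2. Log2 changes with an SE are those of the fitted model, which uses edgeR's default prior count. The script was tested on simulated counts. Intervals and floors (3 counts over a group's libraries together) cover counting error only.

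Genes named were the 12 largest rises and falls with a product name, the 10 most abundant called genes in each direction changed by at least 1, up to 4 called members of lowest p per list, every lysyl oxidase, DDX4 and nanos gene, and the 6 largest differences in each direction between windows. Members, lists and this rule were chosen with earlier results of these data known, some list words were trimmed after names were seen, and further groups by product name were formed after values were seen. Alternatives were RLE scaling, total counts, other filters, DESeq2 1.42.0, a threshold fold of 1.5, a replicate block, the day 3 libraries alone and each library left out. BAPN libraries and the controls labelled as theirs did not deviate together (r 0.01, -0.01 and 0.02 on days 2, 3 and 4; on day 4 for BAPN from hatched blastula, whose controls carry the replicate numbers crossed), so they were not taken as pairs. How reads of near-identical copies or of overlapping genes were shared is not known, so copies of gene families are uncertain.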

Additional observations from a re-analysis of the deposited data

Results flagged for a closer look

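The results here are genes whose BAPN effect differed between windows (edgeR's quasi-likelihood test of the difference, Benjamini-Hochberg adjusted over all tested genes), each difference given as log2 with its SE. Many of the largest have a group without counts. Their fitted size depends on the default prior count of the model and is no bound, so levels are given for some. Differences of 24 genes were also computed under each alternative, and 35 of 312 values lost the call.

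For the day 3 effect minus the day 2 effect, 12 named genes lay at -6.23 or below, and each had a group at 0. Day 2 controls had no count for GABA receptor alpha-6-like LOC119727692 (-10.95 ± 2.3), mannose-6-phosphate receptor-like LOC119728917 (-9.45; -3.61 with adjusted p = 1 without the 0.8 mM day 2 library), engrailed-1a-like LOC119718926 (-9.01 ± 1.3), PGA55-like LOC119725621 (-8.9), polysialyltransferase-like LOC119745946 (-8.65), cyclophilin B-like LOC119737697 (-8.55; -3.13 with adjusted p = 1 without that library), phosphate transporter 2B-like LOC119746037 (-7.99), NFX1-type LOC119739369 (-7.27), DMBT1-like LOC119739152 (-6.81), caspase-7-like LOC119735747 (-6.7 ± 1.1) and beta-3 adrenergic receptor-like LOC119741661 (-6.23). The mannose-6-phosphate receptor-like and cyclophilin B-like genes each lost the call when any 1 of 7 libraries was left out, cyclophilin B-like also with DESeq2 (-7.94), and the GABA receptor lost it without the 0.8 mM day 2 library (-6.37). For monocarboxylate transporter 13-like LOC119728891 (-7.71) it was the day 3 BAPN libraries that had none. Engrailed-1a-like, a homeobox regulator, had 68.9 and 85.2 CPM under BAPN at day 2, against 0 and 0 CPM in controls, and 7.92 and 7.11 CPM at day 3, against 0.304 and 0.738 CPM.

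Genes with counts in every group followed. They were muscle actin LOC119720708 (-4.65 ± 0.63), matrix metalloproteinase-18-like LOC119735925 (-2.92 ± 0.34), the SAM pointed domain Ets factor LOC119719393 (-2.5 ± 0.28), scavenger receptor LOC119746430 (-2.2 ± 0.47), PR domain zinc finger 1 LOC119745514 (1.94 ± 0.22, with opposite calls), fibrillin-1-like LOC119736511 (2.04 ± 0.21) and T-box protein 1 LOC119724510 (2.07 ± 0.25). The metalloproteinase had 711 and 586 CPM under BAPN at day 2, against 2.87 and 2.07 CPM in controls.

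In the other direction, no count was found under BAPN at day 2 for nuclear receptor 2E1-like LOC119722143 (6.46 ± 1.4), Hox-A5-like LOC119728716 (8.39 ± 1.3), sushi domain protein 2-like LOC119735715 (8.59 ± 0.85), superoxide dismutase LOC119738143 (8.67 ± 1.3), bestrophin-2-like LOC119741743 (8.8 ± 1.2), sialyltransferase 8B-like LOC119738167 (9.19 ± 0.85) and VAT-1-like LOC119739270 (9.31 ± 1.4). VAT-1-like had 74.4 and 82.1 CPM under BAPN at day 3, against 185 and 198 CPM in controls, and at day 2 it had 0 and 0 CPM, against 21.4 and 10.5 CPM.

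For the day 4 effect minus the day 3 effect, day 4 BAPN libraries had no count for carboxypeptidase B-like LOC119741824 (-12.25 ± 2.5), adhesion receptor E1-like LOC119745559 (-10.61), phosphate transporter 2-like LOC119724507 (-10.51), 5-deoxyribose kinase-like LOC119732574 (-10.08) and neuroligin-3-like LOC119723541 (-10.01). Without the 1.2 mM day 3 library phosphate transporter 2-like (-8.77) and the kinase (-9.55) lost the call. Pancreatic lipase-related protein 2-like LOC119740278 (-12.04 ± 1.9) had opposite calls and no count in day 3 controls. Its level was 0 and 0.416 CPM under BAPN at day 4, against 28.6 and 28.5 CPM in controls. The day 3 rise rests on 8 counts and did not pass when any of the 4 day 3 libraries was left out (adjusted p = 0.061 to 0.15), which ends the opposite calls.

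Other genes with a lower effect at day 4 had counts in every day 3 and day 4 group compared. They were myosin heavy chain LOC119735028 (-3.63 ± 0.38), CRF receptor 2-like LOC119745239 (-3.44 ± 0.42), glutathione S-transferase theta-1-like LOC119732217 (-2.92 ± 0.23), muscle actin LOC119720708 (-2.85 ± 0.56), VAT-1-like LOC119739270 (-2.57 ± 0.43), mucin-5AC-like LOC119724400 (-2.56 ± 0.19, opposite calls), the Ets factor LOC119719393 (-2.38 ± 0.26), collagen alpha-1(I)-like LOC119741733 (-2.34 ± 0.64), superoxide dismutase LOC119738143 (-2.29 ± 0.64), multidrug resistance-associated protein 4-like LOC119734515 (-2.26 ± 0.2), vesicular glutamate transporter LOC119726821 (-2.23 ± 0.36), caspase-7-like LOC119735747 (-2.15 ± 0.36) and LVN1.2-like LOC119730327 (-1.6 ± 0.18, opposite calls). The collagen chain had 9.98 and 13.7 CPM under BAPN at day 4, against 12.3 and 13.5 CPM in controls.

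Higher at day 4 were quinone oxidoreductase-like LOC119723346 (2.03 ± 0.36), phosphate transporter 2B-like LOC119746037 (5.59 ± 1.3), NFX1-type LOC119739369 (6.04 ± 1.6), late histone H2B.L4-like LOC119721314 (6.54 ± 1.4, opposite calls), beta-3 adrenergic receptor-like LOC119741661 (6.54 ± 1.3), DMBT1-like LOC119739152 (7.71 ± 1.9) and the amidohydrolase YtcJ LOC119722515 (8.63 ± 2.3). Day 4 controls had no count for the receptor and for DMBT1-like. The histone had 11.6 and 9.83 CPM under BAPN at day 4, against 0.983 and 1.8 CPM in controls. Its day 3 fall did not pass without the 1.2 mM library (adjusted p = 0.15), control 1 (0.25) or the 0.8 mM library (0.094), which ends the opposite calls there. The difference of the histone lost its call without day 3 control 1 (5.27), as did that of phosphate transporter 2B-like (5.49). DMBT1-like had 3.39 with adjusted p = 1 without day 3 control 2 and did not pass without either day 4 control (adjusted p = 0.063 and 0.062). The amidohydrolase lost its call when any 1 of 7 libraries was left out (adjusted p = 0.082 to 0.18), and NFX1-type when any 1 of 5 was (adjusted p = 0.056 to 0.11).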

How the results depend on the processing

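The count of genes called at day 3 was 5662 with RLE scaling, 6018 with total counts and 5963 with DESeq2, against 5633 as reported, each of 17519 genes. In other settings the number of genes tested differed. Without a filter 5805 of 23693 were called, and at a mean CPM of at least 1 5702 of 14942. From the 4 day 3 libraries alone it was 7871 of 15763. Tested against a 1.5-fold change, 3138 of the 17519 genes passed. Leaving out 1 library gave 4052 to 4420 calls at day 3, 607 to 1440 for the day 3 minus day 2 effect, 809 to 1512 for the day 4 minus day 3 effect and 4866 to 6231 for day 4 against day 2 controls. The cause of these ranges was not tested. With a replicate block the day 3 count was 5132 and the day 3 minus day 2 count 881, from 12 libraries with 3 residual degrees of freedom. With no filter or DESeq2 the differences between windows had 1670 and 1669 (day 3 minus day 2) and 1878 and 1903 (day 4 minus day 3) calls. Genes that were not called changed sign. Nanos LOC119721088 went between -0.23 and 4.38, PGA55-like LOC119725621 between -0.29 and 0.52 (-0.04 with total counts, -0.09 without control 1), 5-deoxyribose kinase-like LOC119732574 between -1.36 and 0.91, lysyl oxidase homolog LOC119738367 between -0.12 and 0.36 (-0.09 with total counts, -0.08 without control 1), NFX1-type LOC119739369 between -0.1 and 1.93, and bestrophin-2-like LOC119741743 between -0.21 and 0.01. For single genes named at day 3, 1688 of 1736 values kept direction and call, 28 lost the call, 10 gained it and 10 changed sign. For the differences between windows 277 of 312 values kept both and 35 lost the call. Most of these genes were named for a low p, a large change or a large difference in these same libraries. Their totals therefore do not measure how stable the calls of all genes are. Of 405 list medians under the alternatives, 140 moved by more than the SD between the dose pairs. Of 810 list counts 80 moved by more than 1.5-fold. With 2 libraries a group at 12120516 to 14383817 counts, changes near the median SE of 0.33 in genes of low count were not detectable.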

Other observations

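Of 4480 tested genes without a product name 595 rose (13.3%) and 438 fell (9.78%) at day 3, below the 17.1% and 15.1% of all genes. The transcribed pseudogene LOC119741097 had 23400 and 24100 CPM under BAPN, against 4350 and 4400 CPM in controls (2.44 on the log2 scale, adjusted p = 3.2e-09 by edgeR), so that the BAPN libraries lay close together above both controls. Of 910 tested long non-coding RNAs 75 rose and 63 fell, below the shares of all genes. None of the 12 ribosomal RNA genes tested rose or fell by edgeR.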
